A study of Homo sapiens with 6 samples.

Results

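The genes described here encode hnRNP proteins, SR proteins and poly(C)-binding proteins, the abundant nuclear factors that coat new transcripts and steer their splicing. They were taken by name: every row of the counts table whose Entrez ID belongs to a protein-coding gene with an HNRNP symbol, an SRSF symbol with a number, or PCBP1 to PCBP4. This gave 41 of the 28395 genes of the table, made up of 25 hnRNP genes, 12 SR genes and 4 PCBP genes. HNRNPA1L3 also fits the name rule and was not analysed here. RNA was measured in TC28a2 cells, an immortalised line of human chondrocytes (cartilage cells), 48 hours after transfection with an FAP overexpression vector (3 libraries) or a control vector (3 libraries). FAP is a membrane serine protease known from activated fibroblasts. All cells were transfected, and the labels name no promoter for the vector. Nor do they say that replicates were grown apart, so the p-values below reflect variation among 6 libraries that could be purely technical. DRUG-seq, an RNA sequencing method that pools many barcoded samples, was used, and the single comparison asks what raised FAP does to these transcripts.

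Most hnRNP proteins bind nascent RNA through RRM or KH domains, and they often repress the exons they sit on. SR proteins carry an arginine and serine rich tail and mostly promote exon inclusion. The balance of these classes sets splice site choice. Several members are kept in check by splicing their own transcripts into forms that nonsense-mediated decay removes. PCBP proteins, also called hnRNP E, bind cytosine-rich RNA through KH domains in splicing, mRNA stability and translation, and also carry iron to ferritin and to iron enzymes.

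The libraries held 6275038 to 13839743 counts with the FAP vector and 5736056 to 12446373 with the control vector. FAP itself had 1396, 3182 and 4733 counts in the FAP libraries, against 0, 11 and 5 in the controls, so all 6 libraries matched their labels. FAP replicate 3 stood apart from the other FAP libraries by chi-square, but not from replicate 2 by rank correlation. Chi-square per degree of freedom was 16.2 and 15.5 against FAP replicates 1 and 2, and 5.74 between these. Control pairs had 5.21 to 6.78. Spearman rank correlations of FAP replicate 3 were 0.9895 with replicate 2 and 0.9824 with replicate 1, against 0.989 between replicates 1 and 2. Of 12 cartilage markers only SOX9 passed the low-count filter, and COL2A1 and ACAN had at most 4 and 15 counts in any library, so the defining cartilage matrix genes were nearly absent. The summed level of this list was 34.6 to 45.2 CPM in FAP libraries and 26.8 to 35.9 CPM in controls, SOX9 making up most of it. Summed fibroblast markers lay at 2399 to 2662 CPM in FAP libraries and 2177 to 2695 CPM in controls. VIM and COL1A1 made up most of this sum, while DCN and LUM had at most 19 and 26 counts in any library. Summed epithelial markers lay at 1408 to 1541 CPM in FAP libraries and 1313 to 1507 CPM in controls. KRT8 and KRT18 made up most of this sum, while EPCAM, CDH1 and KRT19 had at most 4 counts in any library. Summed immune markers lay at 16.4 to 18.7 CPM in FAP libraries and 16.2 to 17.9 CPM in controls, and endothelial markers at 1.83 to 2.66 CPM in FAP libraries and 0.912 to 1.09 CPM in controls. The part of these markers and of FAP replicate 3 in the results below was not tested, except where values without that library are given. CPM stands for a gene's counts scaled to a common library size with TMM factors, which correct for differences in library composition.

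In these cells 1 gene of the 41, PCBP2, changed past the threshold, and it rose. The test was edgeR's quasi-likelihood test, with a gene called at an adjusted p under 0.05 over the 13373 genes with enough counts. Of the 41 genes 35 were tested, and among these 1 was called higher and 0 lower by edgeR, against 0.0972% of all tested genes called higher and 0.127% lower (0.224% in either direction). DESeq2 also called PCBP2 alone among the 35, against 0.217% of all tested genes higher and 0.396% lower, 0.613% together. limma-voom called 0 of the 35, against 0.0523% of all tested genes higher and 0.105% lower, 0.157% together. edgeR's unadjusted p was under 0.05 for 4 of the 35, against 9.90% of all tested genes. Of the 4, 3 were higher and 1 lower, against 4.60% and 5.30% of all tested genes. These were PCBP2, PCBP3 and PCBP4, higher, and HNRNPM, lower.

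The median log2 fold change of the 35 genes was 0.01, and that of all genes tested was 0.00. Of the 35, 21 had positive and 14 negative values. The median size of the change, regardless of sign, was 0.08 for the 34 of these genes that averaged 10 CPM or more, and 0.12 for all 8663 tested genes at that level. The 95% interval of the log2 fold change lay within 0.5 of 0 on either side for 29 of those 34, against 6557 of the 8663. A change of 0.5 is 1.41-fold. The 34 and the 8663 genes were not matched for level above 10 CPM, and the part of level in these differences was not tested. The FAP and control libraries did not overlap in 8 of the 35 genes, against 16.0% of all tested genes. FAP libraries were the higher ones in 6 of these 8 (7.95% of all tested genes) and the lower ones in HNRNPM and HNRNPA1L2.

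**Figure D1:**
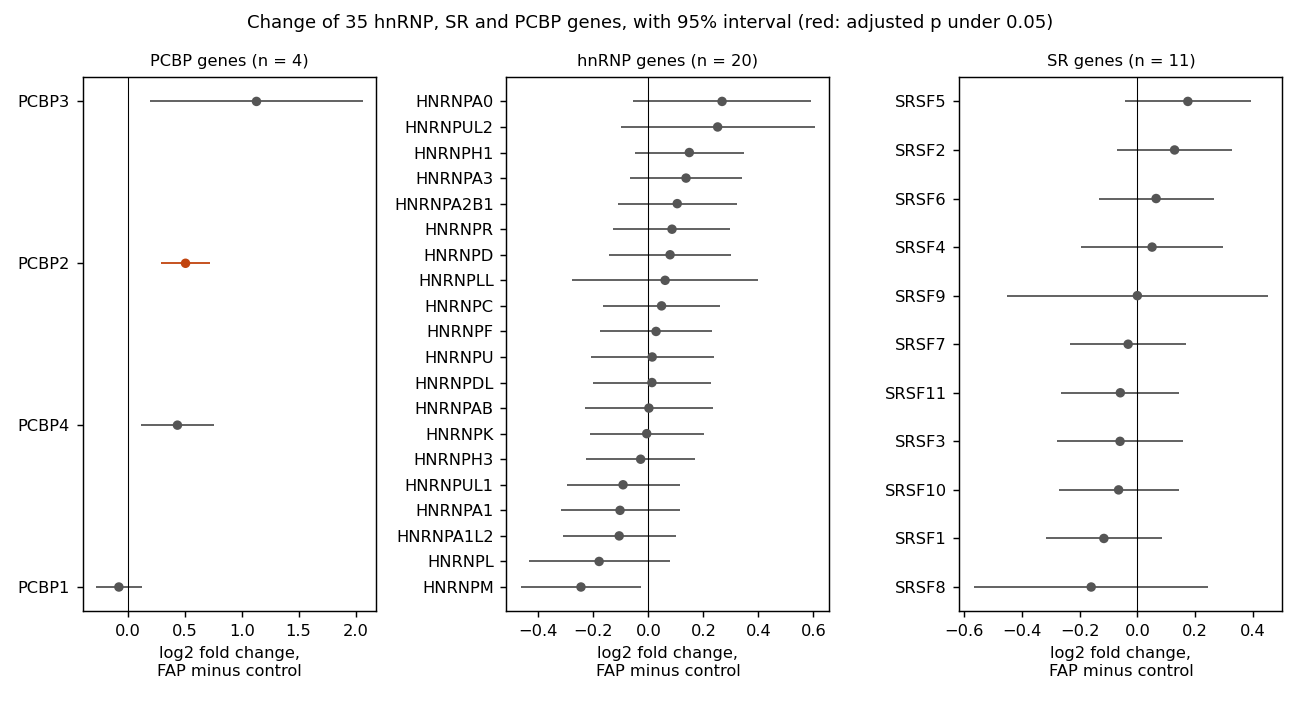
Log2 fold change (FAP vector minus control vector, horizontal axis) of the 35 tested genes in 3 panels for PCBP, hnRNP and SR genes, with 95% intervals as lines; the horizontal scale differs between panels. PCBP2 at 0.51 is the called gene (red), and the hnRNP and SR values lie between -0.24 and 0.27.

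Among the poly(C)-binding protein genes, PCBP2, PCBP3 and PCBP4 were higher in every FAP library than in every control, while PCBP1 was not. The same held for 7.95% of all tested genes, and of these PCBP genes only PCBP2 was called. PCBP2 (Entrez 5094; GRCh38 chromosome 12, 53452102 to 53481162) encodes the hnRNP E2 protein, known for stabilising globin mRNA and for viral internal ribosome entry. PCBP2 was at 203, 232 and 181 CPM in FAP libraries 1, 2 and 3, against 141, 144 and 149 CPM in control libraries 1, 2 and 3. The groups did not overlap, and the lowest FAP library was replicate 3. The mean was 205 ± 25.8 CPM with the FAP vector and 144.5 ± 4.04 CPM with the control vector (SD, n = 3 each). The log2 fold change was 0.51 (SE 0.10, edgeR adjusted p = 0.0431), which is 1.42-fold, with a 95% interval of 0.29 to 0.72. These values rest on 1272, 3292 and 2441 counts in the FAP libraries and 772, 1318 and 1883 in the controls.

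The rise of PCBP2 kept its size but not its call when libraries were left out. Without control replicate 1, 2 or 3 or without FAP replicate 2 the edgeR adjusted p lay between 0.241 and 0.334, with log2 fold changes of 0.41 to 0.53. Without FAP replicate 1 it was 0.0429. Without FAP replicate 3, the library that stands apart by chi-square, the edgeR adjusted p was 6.33e-05 at a log2 fold change of 0.59. DESeq2 gave an adjusted p of 0.00343 and limma-voom 0.0539.

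PCBP1 (Entrez 5093; chromosome 2, 70087477 to 70089203) is an intronless gene, known as a retrotransposed copy of a PCBP2 transcript, and encodes a closely related protein. PCBP1 was at 224, 257 and 239 CPM in FAP libraries 1, 2 and 3, against 237, 261 and 265 CPM in the controls. The groups overlapped, and the log2 fold change was -0.08 (SE 0.10, edgeR adjusted p = 0.824; 95% interval -0.28 to 0.12). Within a library, PCBP2 counts were 90.4%, 90.1% and 75.5% of PCBP1 counts in FAP libraries 1, 2 and 3, against 59.5%, 55.1% and 56.2% in the controls. This ratio uses no scaling between libraries, and it was higher in all 3 FAP libraries. The log2 ratio averaged -0.23 ± 0.15 in FAP libraries and -0.81 ± 0.06 in controls (SD, n = 3 each), a difference of 0.58 with p = 0.1 in a two-sided exact permutation test, the smallest p that 3 against 3 allow. The pair was chosen after its values were seen.

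The starts of PCBP1 and PCBP2 share sequence, shown here because PCBP2 was called and PCBP1 was not. Among the 250 bases before the start in RefSeq's promoter table (GRCh38.p14; PCBP1, PCBP2 and PCBP4), the most alike ungapped windows of 40 bases in PCBP1 and PCBP2 were identical at 35 positions. The same search gave 24 for PCBP2 with PCBP4 and 23 for PCBP1 with PCBP4. Both windows are on the plus strand and end 22 bases (PCBP2) and 17 bases (PCBP1) before the start. The PCBP2 window is at chr12:53452041-53452080 and the PCBP1 window at chr2:70087421-70087460, with capitals marking CTTCCGG, a core bound by ETS family factors:
PCBP2: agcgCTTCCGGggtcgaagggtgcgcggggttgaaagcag
PCBP1: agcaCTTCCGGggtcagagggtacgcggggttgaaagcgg
CTTCCGG or its reverse complement CCGGAAG was found in the 250 bases of 7 of the 32 tested genes with an entry, against 16.2% of 10531 tested genes of all kinds. The 7 were PCBP1, PCBP2, HNRNPD, HNRNPF, HNRNPLL, SRSF4 and SRSF5, of which PCBP2 was the called gene. Of other letters searched on both strands, TATAAA was found in 5 of the 32 (5.31% of all), CCAAT in 14 (35.5% of all) and GGGCGG in 21 (67.2% of all).

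PCBP4 and PCBP3 were higher at an unadjusted p only. PCBP4 (chromosome 3, 51957454 to 51967466), known as a p53 target that restrains growth in human cells, was at 18.8, 22.3 and 23.0 CPM in FAP libraries, against 13.5, 17.1 and 16.7 CPM in controls. Its groups did not overlap, and the log2 fold change was 0.43 (SE 0.15, edgeR adjusted p = 0.337). PCBP3 (chromosome 21, 45643725 to 45942450), a low-expressed relative, was at 2.71, 3.66 and 2.22 CPM in FAP libraries, against 0.547, 1.09 and 1.98 CPM in controls, without overlap. It rests on 17, 52 and 30 counts in FAP libraries and 3, 10 and 25 in controls, with a log2 fold change of 1.13 (SE 0.45, edgeR adjusted p = 0.405). That value was 1.72 without control replicate 3, 0.87 without control replicate 1 and 1.67 after thinning all libraries to the smallest. The antisense row PCBP3-AS1 overlaps it and had 8, 6 and 0 counts in FAP libraries 1, 2 and 3, against 0, 2 and 2 in controls. Its mean level was 17.0% of that of PCBP3, and how reads were assigned between the pair was not tested. Summed over the 4 genes, PCBP levels were 445 to 515 CPM in FAP libraries and 392 to 432 CPM in controls. In bulk RNA, a change in the number of cells that express a gene and a change in its RNA per cell cannot be told apart.

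**Figure D2:**
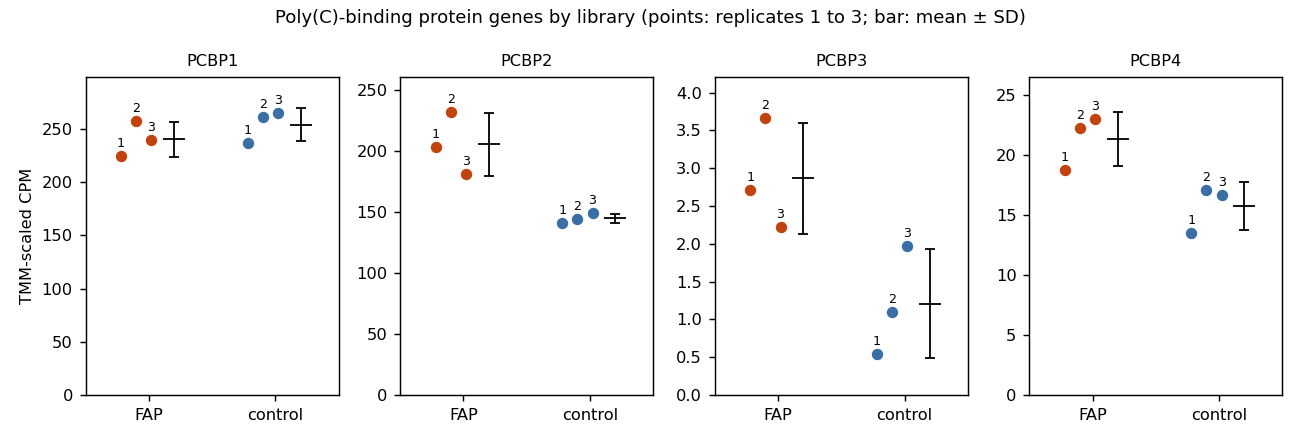
TMM-scaled CPM (vertical axis, from 0, own scale per gene) of the 4 PCBP genes in each library, FAP vector left of control vector, numbered by replicate, with mean and SD. PCBP2, PCBP3 and PCBP4 do not overlap between the groups, and PCBP1 does.

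Among the 20 tested hnRNP genes none was called, with log2 fold changes from -0.24 to 0.27 and a median of 0.02. edgeR's unadjusted p was under 0.05 for 1 of the 20 (HNRNPM), limma-voom and DESeq2 called 0, and the 95% interval lay within 0.5 of 0 for 18 of the 20. HNRNPM (chromosome 19, 8444975 to 8489114), a splicing factor known from the switch of CD44 exons in mesenchymal transition, was at 412, 460 and 490 CPM in FAP libraries, against 590, 514.5 and 511 CPM in controls. The FAP libraries were all lower, with a log2 fold change of -0.24 (SE 0.10, edgeR adjusted p = 0.443). It was between -0.30 and -0.18 with any 1 library left out. Control replicate 1 was the highest of the 6.

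The A and B type hnRNPs, glycine-rich proteins with paired RRM domains, are the most abundant of the class. HNRNPA1 (chromosome 12, 54280726 to 54287087), a repressor of exons and of SRSF1-dependent splice sites, was at 1649, 1632 and 1557 CPM in FAP libraries, against 1837, 1719 and 1640 CPM in controls. Its log2 fold change was -0.10 (SE 0.10, edgeR adjusted p = 0.787), and the groups overlapped by a single pair of libraries. HNRNPA2B1, which also sorts RNAs and microRNAs, was at 1047, 1029 and 1155 CPM in FAP libraries, against 1064, 975 and 965 CPM in controls (log2 fold change 0.11, edgeR adjusted p = 0.78). HNRNPA3 had 0.14, with 495 to 542 CPM in FAP libraries above 458 to 480 CPM in controls. HNRNPAB, at 0.00, was spread over 634 to 769 CPM in FAP libraries and 622 to 759 CPM in controls.

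HNRNPA0, a minor A type member that binds AU-rich mRNAs of stress responses, differed between the FAP libraries themselves. HNRNPA0 was at 125, 87.9 and 68.2 CPM in FAP libraries 1, 2 and 3, against 67.1, 76.6 and 86.0 CPM in controls. HNRNPUL2, a relative of HNRNPU, showed the same order, with 55.9, 40.8 and 28.3 CPM in FAP libraries, against 33.0, 34.1 and 35.8 CPM in controls. In both genes FAP replicate 3 lay among or below the controls. The log2 fold changes were 0.27 and 0.25 (edgeR adjusted p = 0.584 and 0.653). Without FAP replicate 3 they were 0.45 and 0.47, and both were called beside PCBP2 (edgeR adjusted p = 0.0281 and 0.0485). That fit called 0.845% of all tested genes higher and 1.08% lower, 1.92% together. Without FAP replicate 1 they were 0.02 and 0.01. HNRNPUL2 also lies in the readthrough gene HNRNPUL2-BSCL2, whose row held 0 counts. These genes were singled out after their values were seen.

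**Figure D3:**
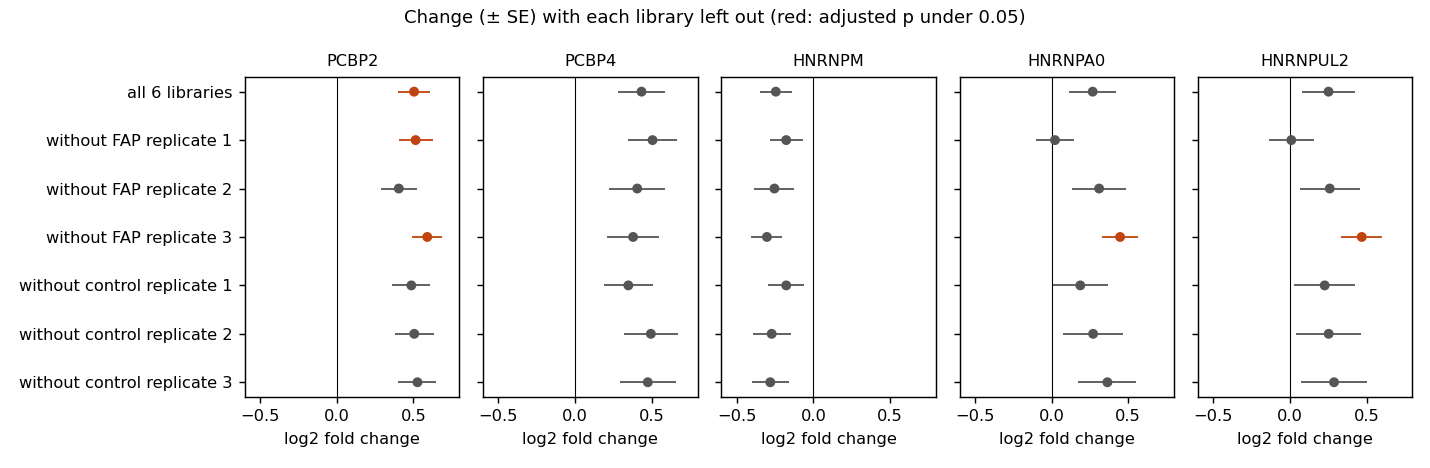
Log2 fold change (horizontal axis, with SE) of 5 genes in the fit of all 6 libraries and with each library left out in turn, red where the adjusted p is under 0.05. PCBP2 stays between 0.41 and 0.59 while its call comes and goes, HNRNPM stays below 0, and HNRNPA0 and HNRNPUL2 are called only without FAP replicate 3.

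HNRNPU, a scaffold protein of nuclear RNA and chromatin, was at 767.5, 856.5 and 962 CPM in FAP libraries, against 860, 861 and 841 CPM in controls. Its log2 fold change was 0.01 (edgeR adjusted p = 0.98), and -0.07 without FAP replicate 3. The controls lay close together, with FAP libraries both below and above them. HNRNPC, which measures nascent RNA length and keeps antisense Alu exons out of mRNA, had 0.05, and HNRNPK, the KH domain relative of the PCBPs, had -0.01. HNRNPD, the AU-rich element binding protein AUF1, and its chromosome 4 neighbour HNRNPDL had 0.08 and 0.01. The G-tract binding genes HNRNPF, HNRNPH1 and HNRNPH3 had 0.03, 0.15 and -0.03, and HNRNPH1 was at 263.4 to 300.3 CPM in FAP libraries, above 247 to 263.3 CPM in controls by a narrow margin. HNRNPL and HNRNPLL, which bind CA repeats and are known from CD45 splicing in T cells, had -0.18 and 0.06. HNRNPL was lowest in FAP replicate 3 (126 CPM, against 172 and 191 CPM in FAP replicates 1 and 2 and 175 to 191.5 CPM in controls). HNRNPR and HNRNPUL1 had 0.09 and -0.09.

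Among the 11 tested SR genes none was called, with log2 fold changes from -0.16 to 0.17 and a median of -0.03. edgeR's unadjusted p was under 0.05 for 0 of the 11, limma-voom and DESeq2 called 0, and the 95% interval lay within 0.5 of 0 for 10. SRSF3, the smallest classical SR protein, also tied to mRNA export, was at 594, 612 and 712 CPM in FAP libraries, against 700.2, 659 and 642 CPM in controls (log2 fold change -0.06, SE 0.10, edgeR adjusted p = 0.887). SRSF1, the founding member and a growth-promoting factor, was at 337, 367 and 331 CPM in FAP libraries, against 372, 393 and 357 CPM in controls (-0.12, SE 0.10, edgeR adjusted p = 0.731). SRSF11, known from microexon splicing, was at 325, 357 and 306.5 CPM in FAP libraries, against 359, 344 and 327 CPM in controls (-0.06, SE 0.10, edgeR adjusted p = 0.878). In all of these the groups overlapped.

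SRSF2, whose protein recognises exonic enhancers and is mutated in blood cancers, was the SR gene without overlap, at 271, 254.3 and 267 CPM in FAP libraries, against 223, 247 and 253.8 CPM in controls. The gap between the groups was narrow, and the log2 fold change was 0.13 (SE 0.10, edgeR adjusted p = 0.684). SRSF5 had 0.17, SRSF6 0.07 and SRSF4 0.05. SRSF7, which with SRSF3 links splicing to poly(A) site choice and export, had -0.03, and SRSF10, a repressor when dephosphorylated after heat shock, had -0.06. SRSF8 and SRSF9 were the lowest of the tested SR genes. SRSF8 was at 10.5 to 17.7 CPM in FAP libraries and 12.6 to 19.2 CPM in controls, with a 95% interval of -0.57 to 0.25. SRSF9 was at 10.99 to 24.3 CPM in FAP libraries and 12.25 to 20.6 CPM in controls, with an interval of -0.45 to 0.45. SRSF9 shares 2078 bases with GATC on the other strand, whose mean level of 33.3 CPM was above its own 17.4 CPM. Whether counting used strand is not given in the sources used here, so reads of these partners cannot be told apart.

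Summed over the 25 hnRNP genes, levels were 9652, 9781 and 10210 CPM in FAP libraries, against 10380, 9753 and 9637 CPM in controls. The 12 SR genes summed to 2344, 2387 and 2416 CPM in FAP libraries, against 2487, 2413 and 2360 CPM in controls. Both sums overlapped between groups. All 41 genes took 1.245% to 1.35% of the counts in FAP libraries and 1.22% to 1.27% in controls.

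Per kilobase of the longest GENCODE transcript and over all 6 libraries, HNRNPA1L2 was at 546 CPM per kb, HNRNPA1 at 406 and HNRNPAB at 378. HNRNPK followed at 232, HNRNPM at 193 and HNRNPA2B1 at 165 CPM per kb. SRSF3 led the SR genes at 155 CPM per kb, followed by SRSF1 at 115, SRSF2 at 87.6 and SRSF11 at 83.9. PCBP1 was at 141 CPM per kb, PCBP2 at 56.8, PCBP4 at 7.14 and PCBP3 at 0.924. DRUG-seq is generally described as reading transcript ends, where dividing by length would rank long genes too low. Coverage along transcripts was not analysed here.

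Several of these genes have near-identical copies in the genome. RefSeq lists 144 pseudogenes of these genes, 75 of them of HNRNPA1, and 5 of the 144 have a row in the table. HNRNPA1L2 is a copy on chromosome 13. It held 43.2%, 45.4% and 45.8% of the HNRNPA1 count in FAP libraries 1, 2 and 3. In controls it held 43.4%, 46.0% and 45.2%. The pseudogene HNRNPA1P10 held 33.2%, 32.6% and 29.8% in FAP libraries, against 30.8%, 32.7% and 33.1% in controls. The shares were nearly fixed across libraries, and gene counts do not tell a transcribed copy from reads of HNRNPA1 placed at it. HNRNPA1L2 was at 712 to 741 CPM in FAP libraries and 742 to 798 CPM in controls, with a log2 fold change of -0.11 beside the -0.10 of HNRNPA1, and whether the rows are independent was not tested. With all copies added to HNRNPA1, a choice made after the data were seen, its log2 fold change was -0.105 (SE 0.106, edgeR adjusted p = 0.785). None of the 4 PCBP2 pseudogenes that RefSeq lists was analysed here as a row of its own.

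**Figure D4:**
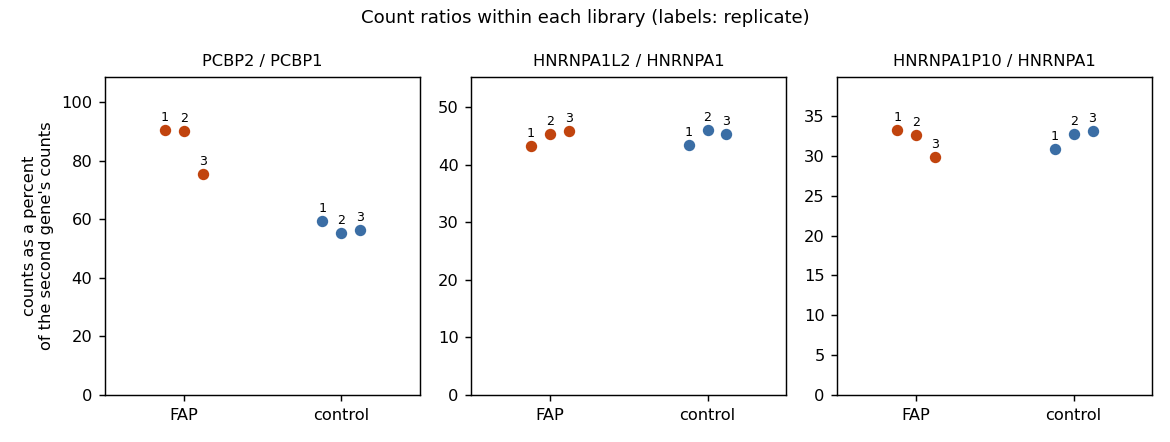
Counts of 1 gene as a percent of another's in the same library (vertical axis, from 0), FAP vector left of control vector, numbered by replicate. PCBP2 over PCBP1 is 75.5% to 90.4% in FAP libraries and 55.1% to 59.5% in controls, while the copies HNRNPA1L2 and HNRNPA1P10 keep near-fixed shares of HNRNPA1.

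The low-count filter removed 6 of the 41 genes, with at most 12 counts in any library. SRSF12, which is mainly a testis and brain gene, had 1, 12 and 12 counts in FAP libraries and 7, 6 and 10 in controls. It shares 22113 bases with PM20D2 on the other strand, which averaged 80.7 CPM. HNRNPCL1 had 1, 0 and 2 counts in FAP libraries and 3, 1 and 1 in controls. HNRNPCL2, HNRNPCL3 and HNRNPCL4 are near-identical copies with the same counts in every library, 0, 0 and 0 with the FAP vector and 2, 1 and 0 with the control vector, so they are 1 observation. A count of 0 allows up to 0.478, 0.211 and 0.222 CPM in FAP libraries 1, 2 and 3, by counting error only. HNRNPH2 had 0, 1 and 1 counts in FAP libraries and 0, 1 and 0 in controls. Its 5912 bases lie wholly within the readthrough gene RPL36A-HNRNPH2, whose row held 0 counts in all 6 libraries, and how reads were assigned between the pair was not tested.

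PCBP2 shares 1494 bases with MAP3K12 on the other strand, whose mean of 2.15 CPM is 1.23% of that of PCBP2. The row PCBP2-OT1 had at most 6 counts in a library. Of the 41 genes, 16 overlap another gene of the table. SRSF4 overlaps MECR (22.2% of its level) and HNRNPH3 overlaps RUFY2 (11.8%), and the partners of HNRNPK, HNRNPAB, SRSF1 and SRSF2 were at 6.50% or less.

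In GENCODE v29, 11 of the 11 tested SR genes, 13 of the 20 hnRNP genes and 2 of the 4 PCBP genes have at least 1 transcript marked for nonsense-mediated decay. Among all tested genes with a coding transcript the share was 42.7%, and 45.4% for those averaging 10 CPM or more. HNRNPU has 9 such transcripts, SRSF7 has 6, and PCBP2 has 2 of its 26. Counts per gene sum these forms with the coding ones, so a change in their balance, or in the splicing of any target, is outside these data.

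Across 6 related lists with 131 tested genes edgeR called 0 higher and 0 lower (0.224% of all tested genes), and DESeq2 called 1 (0.613%). edgeR's unadjusted p was under 0.05 for 15 of the 131, which is 11.5%, against 9.90% of all tested genes. The lists' medians lay between -0.09 and 0.07, beside 0.00 for all genes. Of 12 genes of hnRNP proteins with other symbols, 6 were positive and 6 negative, and the smallest p-values were those of RBMXL1, a copy of RBMX, and TARDBP, the TDP-43 protein, at 0.27 and -0.15 (edgeR adjusted p = 0.51 and 0.641). Of 37 other regulators of splice site choice, 21 were positive. KHSRP, a KH domain protein of splicing and AU-rich mRNA decay, was at 323, 294 and 265 CPM in FAP libraries, against 210, 221 and 242 CPM in controls. Its groups did not overlap (log2 fold change 0.39, edgeR adjusted p = 0.148), and it was the gene called by DESeq2. KHDRBS1, the KH domain protein Sam68, was at 294, 305 and 252 CPM in FAP libraries, against 210, 213 and 246 CPM in controls (0.35, edgeR adjusted p = 0.237), again without overlap. By unadjusted p under 0.05 the list held 2 genes higher, KHSRP and KHDRBS1, and 2 lower. The lower ones were SREK1, an SR-related protein, and RBM25, at -0.32 and -0.23 (edgeR adjusted p = 0.304 and 0.474).

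Of 13 genes for SR protein kinases, phosphatases and import receptors, 10 were positive, CLK1 at 0.35 and PPP1CB at 0.20 having the smallest p-values (edgeR adjusted p = 0.497 and 0.534). Of 42 core spliceosome genes, 26 were negative, with the 3' splice site factor U2AF1 at -0.29 and the SF3B subunit PHF5A at -0.47 (edgeR adjusted p = 0.357 and 0.366). SF3A2, another subunit of the U2 particle, had 0.46 (edgeR adjusted p = 0.367). By unadjusted p under 0.05 this list held 1 gene higher and 3 lower. Of 15 genes of nonsense-mediated decay and the exon junction, 8 were negative. MAGOHB and its paralog MAGOH, which encode nearly the same exon junction protein, had -0.47 and 0.33 (edgeR adjusted p = 0.165 and 0.471). The smallest p-values there were those of MAGOHB and SMG9 (-0.37, edgeR adjusted p = 0.25).

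The genes of iron storage and handling, only some of them served by PCBP proteins, were not called. Of 12 tested, 8 were negative, with a median of -0.09. The ferritin genes FTH1 and FTL had -0.23 and -0.13 (edgeR adjusted p = 0.482 and 0.734). FTH1 was at 1963, 1948 and 1714 CPM in FAP libraries, against 2170, 2293 and 2131 CPM in controls, lower in all 3 FAP libraries. HIF1AN, the asparagine hydroxylase of HIF proteins, had -0.40 (edgeR adjusted p = 0.32).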

How the data were processed

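The deposited table holds raw read counts per Entrez gene for 6 libraries, not normalized by the authors. HISAT2, featureCounts and Subread and the build GRCh38 are named in the submitters' processing notes. Not given in the sources used here are their versions, the strand setting, and how multiple alignments and molecular identifiers were handled. Counting multiple alignments can place 1 read at several gene copies. Of the 28395 IDs 27745 matched a symbol and position in RefSeq's gene table (GRCh38.p14).

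edgeR 4.0.16 (R 4.3.3) was run on the whole table: TMM, filterByExpr by group (minimum count 10, minimum total 15), quasi-likelihood F test of FAP minus control without covariates, two-sided, Benjamini-Hochberg over 13373 genes. The SE is the log2 fold change over the square root of F. DESeq2 1.42.0, limma-voom (limma 3.58.1) and other scalings, filters and left-out libraries were alternatives. The fit was tested on simulated data, with 50 genes averaging 10 CPM or more changed at each fold size. It recovered 14% of 1.25-fold, 76% of 1.5-fold and 100% of 2-fold changes, with 12 false calls among 157. Small changes can therefore go uncalled. Transcript lengths and types are from GENCODE v29, found for 97.4% of tested genes. The genes and lists were chosen with earlier results of these data known. Values per library are given for called genes, those with an unadjusted p under 0.05, the 3 most abundant hnRNP and SR genes, and every PCBP gene. In related lists the called genes, or else the 2 of smallest p, are named with their fold changes. Library values of HNRNPA0, HNRNPUL2, HNRNPL, SRSF2, KHSRP, KHDRBS1 and FTH1, and the fold changes of SREK1, RBM25, SF3A2, MAGOH and FTL, were added after their values were seen. Intervals and limits cover counting error only where counts are concerned.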

Additional observations from a re-analysis of the deposited data

How the results depend on the processing

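Under 16 alternatives, PCBP2 kept a positive log2 fold change (0.41 to 0.59), with adjusted p-values from 6.33e-05 to 0.334, and was called in 11. Adding pseudogene rows to their parents, or copies to HNRNPA1, left PCBP2's own counts as they were. The calls there (edgeR adjusted p = 0.0432 and 0.0433) therefore add nothing to the main fit. The count of hnRNP, SR and PCBP genes called higher was 0 with limma-voom, and 0 to 3 with 1 library left out. The count called lower was 0 in all 16. All genes called numbered 82 with DESeq2, 152 without the low-count filter, 19 with library totals, 17 after thinning to the smallest library, and 3 to 257 with 1 library left out. Related genes called numbered 1 with DESeq2, 2 without the filter (KHSRP and MAGOHB), and 0 to 6 with 1 library left out. The median of the 35 genes was 0.071 with library totals, where that of all genes was 0.057, and -0.01 to 0.04 with 1 library left out. The count separated between groups was 7 with DESeq2, with RLE scaling factors and after thinning, and HNRNPH1 overlapped with DESeq2's scaling. The share of all genes separated in those fits is not given here. With at least 10 CPM required in 3 libraries, 5 genes were separated between groups, and PCBP3 was no longer tested. The share separated among all 8725 genes tested there was not counted, so the 5 cannot be set against it. HNRNPU lay between -0.072 (without FAP replicate 3, a change of sign) and 0.093 (without FAP replicate 1) with 1 library left out. The cause of these moves was not tested. With 1 library left out, 8 to 13 genes were separated, against 23.8% to 30.2% of all tested genes. The replicate block called 44 genes, and PCBP2 was at 0.50 (adjusted p = 0.0416); same-numbered libraries did not deviate together (correlations -0.0039, 0.0203 and -0.0041), so the numbers were not taken as pairs.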
